A study of Mus musculus with 59 samples.

Results

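The insulin receptor, PI3K and AKT signalling genes were followed through 9 members chosen by name: Insr, Igf1r, Irs1, Irs2, Pik3r1, Pik3ca, Akt1, Akt2 and Foxo1. All 9 were among the 55341 genes of each of the 3 count tables, and all 9 passed the limit on low counts in every comparison. RNA-seq was performed on the brown adipose tissue (BAT) of 59 male C57BL/6J mice aged 8 to 12 weeks, in 15 groups and 3 experiments. In the first experiment mice were fed PTU, an antithyroid drug, and thyroid hormone (TH, T3 with T4) was then injected once: 4 wild-type (WT) mice received PTU alone, 4 each were taken 3, 6, 12 and 24 h after TH, and 5 BATKO mice received PTU alone and 5 were taken 24 h after TH. The second held 3 control (CTRL) and 4 BATKO mice at 4 °C and 4 CTRL and 5 BATKO mice at 30 °C, and the third 4 CTRL and 3 BATKO mice on a high-fat diet (HFD) and 4 CTRL and 2 BATKO mice on chow. The gene changed in BATKO mice, the promoter behind the change and the genotype of CTRL mice are not given in the sources used here, so the targeted gene could not be checked.

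Insulin and the insulin-like growth factors bind receptor tyrosine kinases, encoded by Insr and Igf1r, which phosphorylate the substrate proteins encoded by Irs1 and Irs2. These recruit PI3K, made of a regulatory subunit such as that of Pik3r1 and a catalytic subunit such as that of Pik3ca, and the lipid it makes activates the kinases encoded by Akt1 and Akt2. AKT promotes glucose uptake and lipid synthesis in fat, and keeps the transcription factor encoded by Foxo1 out of the nucleus. The pathway is known to supply brown fat with fuel and to support the growth of the tissue. RNA levels do not report the phosphorylation through which it signals.

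In GENCODE M21 on GRCm38, the receptor genes lie at chr8:3122061-3279617 (minus strand) for Insr and chr7:67952827-68233668 (plus strand) for Igf1r, and the substrate genes at chr1:82233101-82291416 (minus strand) for Irs1 and chr8:10984681-11008458 (minus strand) for Irs2. Pik3r1 lies at chr13:101680563-101768217 (minus strand) and Pik3ca at chr3:32397671-32468486 (plus strand). Akt1 lies at chr12:112653821-112674884 (minus strand), Akt2 at chr7:27591552-27640826 (plus strand) and Foxo1 at chr3:52268336-52353221 (plus strand). Exons of Irs1 share 2822 bases (30.9%) with Gm9747 on the opposite strand, those of Foxo1 share 674 bases with the antisense gene Gm20402, and those of Irs2 share 162 bases with the opposite-strand gene 9530052E02Rik. The strand setting of the counting is not given in the sources used here, so reads of these stretches cannot be assigned with certainty, and Gm9747 had 0 counts in every PTU-fed WT mouse.

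Promoters are shown for Irs1, Irs2, Akt1 and Pik3r1, members whose levels changed with TH or with cold. Each is the 250 bases before a RefSeq transcription start in GRCm38.p6, written 5′ to 3′ on the strand of the gene. The table of RefSeq promoters used here held 13 starts of 8 of the 9 members, all but Insr. Capitals mark matches on either strand to CAAAACAA (the core of insulin response sequences), to GTAAACA (a motif of FOXO factors) and to AGGTCA (the half-site of nuclear receptors). The Irs1 window is chr1:82291440-82291689 and the Irs2 window chr8:11008930-11009179, that of Akt1 is chr12:112674885-112675134, and Pik3r1 has a distal start with the window chr13:101768218-101768467 and a proximal one with chr13:101692631-101692880, all on the minus strand.
Irs1: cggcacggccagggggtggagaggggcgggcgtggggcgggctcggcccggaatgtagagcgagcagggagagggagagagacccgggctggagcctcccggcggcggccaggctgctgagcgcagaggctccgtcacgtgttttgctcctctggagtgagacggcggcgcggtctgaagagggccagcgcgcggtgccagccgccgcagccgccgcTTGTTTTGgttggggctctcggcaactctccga
Irs2: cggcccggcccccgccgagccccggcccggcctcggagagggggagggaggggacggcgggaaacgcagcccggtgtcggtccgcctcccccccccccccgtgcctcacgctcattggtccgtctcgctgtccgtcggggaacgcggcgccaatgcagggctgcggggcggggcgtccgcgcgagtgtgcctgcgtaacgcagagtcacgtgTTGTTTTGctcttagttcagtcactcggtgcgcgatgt
Akt1: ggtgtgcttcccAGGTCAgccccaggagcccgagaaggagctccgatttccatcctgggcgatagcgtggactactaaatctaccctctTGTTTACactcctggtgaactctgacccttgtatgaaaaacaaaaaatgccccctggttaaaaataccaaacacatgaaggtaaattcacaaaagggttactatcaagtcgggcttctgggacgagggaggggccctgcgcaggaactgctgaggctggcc
Pik3r1, distal: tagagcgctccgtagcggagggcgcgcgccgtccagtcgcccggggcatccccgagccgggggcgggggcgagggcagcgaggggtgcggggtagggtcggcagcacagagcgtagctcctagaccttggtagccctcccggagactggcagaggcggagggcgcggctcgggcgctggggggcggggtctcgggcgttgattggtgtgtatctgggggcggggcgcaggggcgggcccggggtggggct
Pik3r1, proximal: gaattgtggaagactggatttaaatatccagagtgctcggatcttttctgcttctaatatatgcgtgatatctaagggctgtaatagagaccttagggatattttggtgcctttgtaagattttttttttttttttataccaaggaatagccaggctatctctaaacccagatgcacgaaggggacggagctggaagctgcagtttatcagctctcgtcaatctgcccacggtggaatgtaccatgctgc

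Both substrate genes held CAAAACAA on the strand opposite to the gene, 33 bases before the start of Irs1 and 38 before that of Irs2, a motif present in 2.21% of 32851 promoters of this length. The Akt1 window shown held AGGTCA 238 bases before its start, a motif present in 14.0% of promoters, and GTAAACA on the opposite strand 161 bases before it, present in 3.17%. The window of the other RefSeq start of Akt1, chr12:112674277-112674526, held none of the motifs searched. Igf1r held AGGTCA on the opposite strand 86 bases before its start. The windows of Pik3r1 held none of these. The exact thyroid response element of the DR4 kind, a direct repeat of the half-site with a spacer, which was present in 0.0152% of promoters, the cyclic AMP element TGACGTCA (1.55%) and the sterol response element TCACCCCAC (0.496%) were not found in the windows of these 8 members.

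Levels are given as counts scaled to the library total (CPM), with TMM factors that correct for differences in composition between libraries. Total counts per mouse were between 7612059 and 18073627, and the 12 brown adipocyte markers, Ucp1 among them, summed to 6602 CPM or more in every mouse. The 8 skeletal muscle fibre markers summed to over 1000 CPM in 11 mice of 7 groups, and to under 1 CPM in at least 1 mouse of 4 groups. In whole tissue, fewer cells of a type cannot be told apart from less RNA per cell. In the TH experiment the BATKO libraries stood far apart from the WT libraries: 2832 of 9072 genes (31.2%) differed more than 2-fold between the PTU-fed genotypes. In the other tables the genotypes differed so for 29 of 9689 (0.299%) at 30 °C, 206 of 8473 (2.43%) at 4 °C, 64 of 9465 (0.676%) on HFD and 151 of 9311 (1.62%) on chow. The mitochondrial gene mt-Atp6 had at most 2 counts in PTU-fed WT mice and at least 538916 in PTU-fed BATKO mice, and at most 2 in the CTRL mice of the other tables. Whether the BATKO libraries of the TH experiment were aligned and counted with the same settings as the WT libraries is not given in the sources used here, which bears on the interaction with genotype. Genotype and the difference between these libraries cannot be told apart, so the levels shown were scaled apart. The BATKO response and its interaction were fitted with size factors over all 30 mice. Levels were not tested between these genotypes.

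Per kilobase of exon, Irs2 had the highest level of the members in 33 of the 49 mice outside the BATKO groups of the TH experiment, Foxo1 in 10, and Pik3r1 and Akt1 in 3 each. In the 10 BATKO mice of the TH experiment, whose libraries stand apart, Akt2 was first in 7 and Irs2 in 0. Igf1r had the lowest level in all 59 mice. In CTRL mice at 30 °C, Irs2 stood at 37.0 ± 11.5 CPM per kb (SD, n = 4). Foxo1 stood at 12.8 ± 3.74 CPM per kb, Pik3r1 at 8.97 ± 2.18 and Akt1 at 8.07 ± 1.00, and the ranges of neighbours in this order overlapped. Lower were Insr at 4.03 ± 0.398 CPM per kb, Irs1 at 3.33 ± 0.0946, Akt2 at 3.26 ± 0.425 and Pik3ca at 2.67 ± 0.134, where Irs1 overlapped with Akt2 and Akt2 with Insr and Pik3ca. Igf1r stood at 0.746 ± 0.127 CPM per kb, below all the others.

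The time course asked how BAT genes responded to TH in WT mice fed PTU. Akt1 and Foxo1 rose and Irs1 and Pik3r1 fell at each of the 4 times. Insr was called at 3 h and Igf1r at 12 h, both higher, and Irs2, Pik3ca and Akt2 passed at none. In edgeR's quasi-likelihood fit (Benjamini-Hochberg adjusted over all genes), 5 of 9 members were called at 3 h, where 9.19% of 13003 genes were. The counts were 4 at 6 h (23% of all genes), 5 at 12 h (25.7%) and 4 at 24 h (32.7%). The 4 comparisons share their control mice. At 3 h, mouse B11 stood apart with 114 CPM of 8 immune cell markers, against 30.3 to 35.4 CPM in the others, and 1300.5 CPM of 5 red blood cell markers, against 202 to 351 CPM. Without B11, 4 members were called at 3 h. Some summed markers did not overlap with those of the PTU-fed mice, and their part in the results was not tested. At 3 h those of smooth muscle and pericytes were between 277 and 304 CPM, against between 239.6 and 266 CPM with PTU alone, and those of white adipocytes between 12.3 and 19.1 CPM, against between 22.0 and 26.99 CPM. Brown adipocyte markers were between 20470.4 and 23724 CPM at 6 h, against between 16343 and 19031 CPM. Endothelial markers were between 291 and 360.1 CPM at 6 h and between 287 and 356 CPM at 12 h, against between 367 and 378 CPM.

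**Figure D1:**
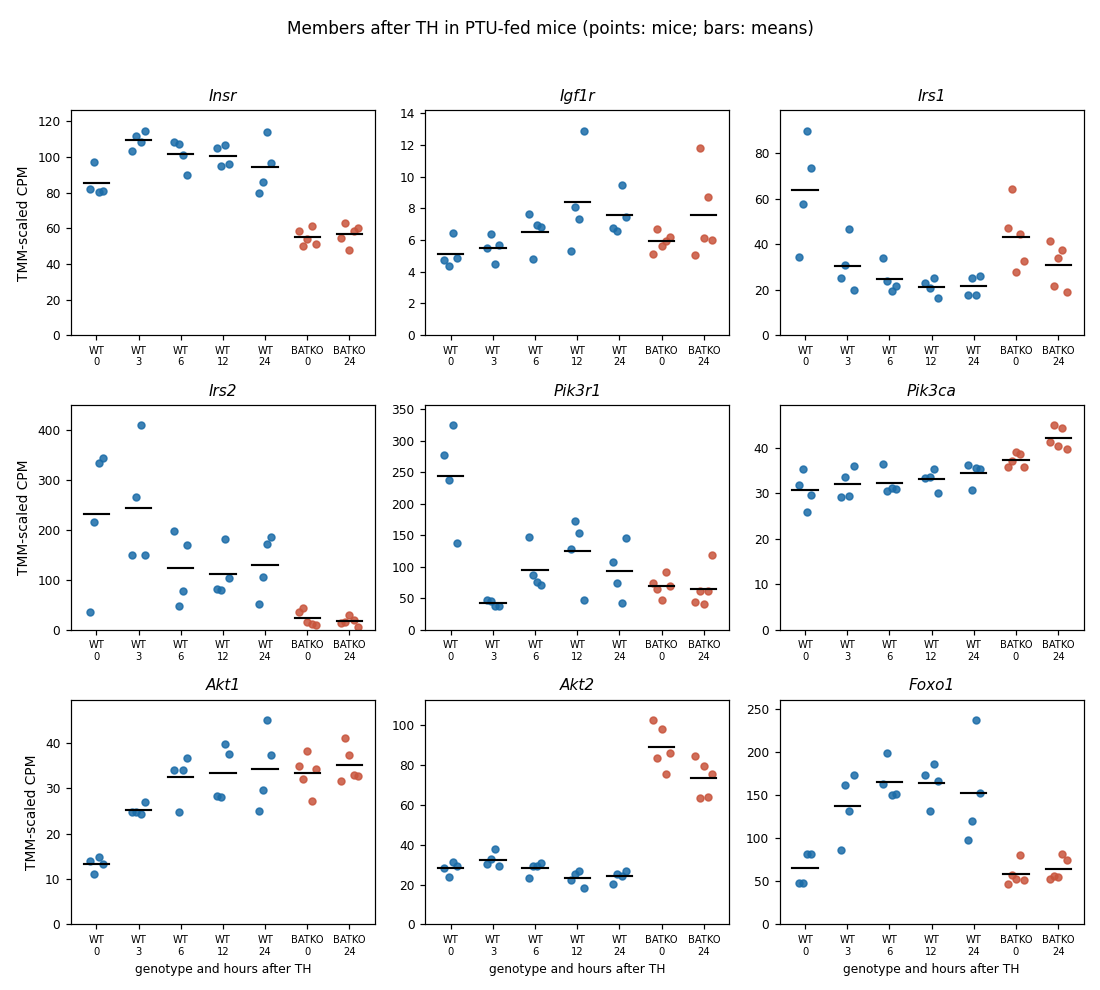
Levels of the 9 members in each mouse of the TH experiment (TMM-scaled CPM, axes from 0) by genotype and hours after TH, with 0 for PTU alone. Points are mice, blue for WT and red for BATKO, and bars are group means, and the genotypes were scaled apart. Akt1 lay between 11.2 and 14.8 CPM in WT mice at 0 h and between 24.4 and 45.1 CPM afterwards.

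Pik3r1, a regulatory subunit of PI3K, had the largest change of the members at 3 h. Its level was 277, 238, 324 and 138 CPM in the PTU-fed WT mice and 47.5, 45.0, 37.0 and 38.3 CPM 3 h after TH. The groups did not overlap, as for 16.0% of all genes, and its log2 fold change was -2.54 (SE 0.37, adjusted p = 0.000147). At 6 h Pik3r1 had 147, 87.1, 76.0 and 70.5 CPM, at 12 h 128, 173, 153 and 47.7 CPM and at 24 h 108, 74.1, 41.8 and 146 CPM. At these times its highest mouse was above the lowest PTU-fed mouse. In log2 fold change it stood at -1.36 (SE 0.36, adjusted p = 0.00839) at 6 h, -0.96 (SE 0.35, adjusted p = 0.0496) at 12 h and -1.40 (SE 0.36, adjusted p = 0.00463) at 24 h. The call at 12 h was lost with DESeq2 (adjusted p = 0.0647), with edgeR on the size factors of DESeq2 (0.0514) and without PTU mouse B2 or B3 or B4 or 12 h mouse B19 or B21 or B23 (adjusted p of up to 0.139).

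Irs1, a substrate of the insulin receptor, had 34.5, 57.8, 89.9 and 73.7 CPM with PTU alone and 25.0, 30.8, 46.5 and 19.8 CPM at 3 h, where the groups overlapped. It had 34.1, 23.9, 19.3 and 21.6 CPM at 6 h and between 16.5 and 25.9 CPM in the 8 mice at 12 and 24 h. From 6 h on, all mice were below all controls, and groups did not overlap for 26%, 26% and 29.0% of all genes at 6, 12 and 24 h. In log2 fold change, Irs1 stood at -1.07 (SE 0.26, adjusted p = 0.0118) at 3 h, -1.37 at 6 h, -1.58 at 12 h and -1.56 (SE 0.27, adjusted p = 0.000123) at 24 h.

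Irs2, the other main substrate, had 36.3, 215, 333 and 345 CPM with PTU alone, a wide spread within 1 group. It had 150.4, 266, 409.5 and 151 CPM at 3 h and 51.6, 106, 172 and 187 CPM at 24 h. The log2 fold change of Irs2 was 0.07 at 3 h. It was -0.91 at 6 h with a 95% confidence interval from -2.03 to 0.21, -1.05 at 12 h with an interval from -2.17 to 0.08, and -0.85 at 24 h with an interval from -1.96 to 0.27. Without a filter on low counts, Irs2 was called at 12 h (adjusted p = 0.0447, against 0.165 with it).

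Akt1, an AKT kinase, had 13.9, 11.2, 14.8 and 13.4 CPM with PTU alone. It had 24.7, 24.7, 24.4 and 26.9 CPM at 3 h and 25.1, 29.7, 45.1 and 37.3 CPM at 24 h. Every mouse given TH was above every control at all 4 times. In log2 fold change, Akt1 stood at 0.91 (SE 0.17, adjusted p = 0.00122) at 3 h, 1.28 at 6 h, 1.32 at 12 h and 1.36 (SE 0.17, adjusted p = 2.32e-06) at 24 h.

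Foxo1, the transcription factor restrained by AKT, had 47.4, 48.5, 81.6 and 81.6 CPM with PTU alone. It had 85.8, 161, 131 and 173 CPM at 3 h and 97.5, 120.3, 237 and 153 CPM at 24 h, and again no mouse given TH overlapped with the controls at any time. The log2 fold change of Foxo1 was 1.09 (SE 0.25, adjusted p = 0.00765) at 3 h, 1.35 at 6 h, 1.34 at 12 h and 1.23 (SE 0.25, adjusted p = 0.000675) at 24 h.

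The receptors changed less. Insr had 82.1, 97.0, 80.5 and 80.7 CPM with PTU alone and 103, 112, 109 and 115 CPM at 3 h, with no overlap. Its log2 fold change was 0.37 (SE 0.10, adjusted p = 0.0303) at 3 h and 0.15 at 24 h. The call of Insr was lost without a filter on low counts (adjusted p = 0.0701) and without PTU mouse B2 or B4 or B5 or 3 h mouse B8 or B9 or B11 (adjusted p of up to 0.0833). Igf1r had 4.72, 4.37, 6.47 and 4.89 CPM with PTU alone and 5.33, 8.10, 7.34 and 12.9 CPM at 12 h, where its log2 fold change was 0.69 (SE 0.22, adjusted p = 0.0247). That call was lost without PTU mouse B2 or B3 or B5 or 12 h mouse B23 (adjusted p of up to 0.140). At 24 h Igf1r had 6.74, 6.59, 9.48 and 7.45 CPM and a log2 fold change of 0.56 (SE 0.22, adjusted p = 0.0531), which was called by DESeq2 (adjusted p = 0.0436), without a filter on low counts (0.0499) and with a mean count above 50 (0.0488).

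Pik3ca, the catalytic subunit of PI3K, stayed between 25.9 and 36.4 CPM in all 20 WT mice. Akt2, the AKT kinase best known for glucose uptake, had 28.2, 23.7, 31.5 and 29.3 CPM with PTU alone, 30.4, 32.8, 37.9 and 29.1 CPM at 3 h and 20.3, 25.1, 24.4 and 26.6 CPM at 24 h. Its log2 fold change at 24 h was -0.22, with a 95% confidence interval from -0.49 to 0.04. Its levels at 3 h and 24 h did not overlap with each other, as for 20.0% of all genes.

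Between 24 h and 3 h after TH, 3 of 9 members were called, where 21.2% of all genes were. Pik3r1 was higher at 24 h by 1.14 (SE 0.36, adjusted p = 0.0276) on the log2 scale, Akt1 was higher by 0.45 (SE 0.16, adjusted p = 0.0495), and Akt2 was lower, with a log2 fold change of -0.43 (SE 0.13, adjusted p = 0.0199). With size factors computed over all 30 mice of the experiment, as in a first run, 2 were called, since Akt1 was lost (adjusted p = 0.0602). Summed skeletal muscle markers were between 3.36 and 236 CPM at 3 h and between 267 and 1143 CPM at 24 h, and those of smooth muscle and pericytes between 277 and 304 and then between 229 and 274 CPM, with no overlap, and their part in these changes was not tested. Single mice also ended these calls. Pik3r1 was lost without 3 h mouse B8 or B9 or B11 or 24 h mouse B24 or B28 (adjusted p of up to 0.122), Akt1 without 3 h mouse B7 or B8 or B9 or B11 or 24 h mouse B27 or B28 (up to 0.173) and Akt2 without 3 h mouse B9 or 24 h mouse B24 (up to 0.0803).

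Of 106 other pathway genes in 7 lists, 91 were tested in WT mice. At 3 h, 3 were higher and 14 lower, against 5.10% and 4.09% of all genes. At 6 h, 13 were higher and 20 lower, against 12.1% and 10.9%. At 12 h, 12 were higher and 18 lower, against 13.6% and 12.1%. At 24 h, 19 were higher and 15 lower, against 17.2% and 15.5% of all genes. The median log2 fold change of these pathway genes at 24 h was 0.03, against 0.01 over all genes. Among PI3K subunits at 3 h, 1 of 12 rose, the catalytic Pik3cd, known from leukocytes (log2 fold change 1.21, SE 0.32), and 2 fell, the catalytic Pik3cb (-1.03, SE 0.15) and the regulatory Pik3r3 (-1.01, SE 0.20). Pik3cd had 9, 5, 9 and 7 counts with PTU alone and 16, 14, 16 and 30 counts at 3 h, with the highest in mouse B11, and the part of immune cells in its rise was not tested. At 6 h Txnip, which restrains glucose uptake (-1.61, SE 0.26), and Acly, which makes cytosolic acetyl-CoA (-1.49, SE 0.29), had the largest falls. The largest rise at 6 h was that of the kinase gene Sgk2 (1.96, SE 0.67). At 12 h the largest rise was that of Tsc22d3 (1.28, SE 0.29), a glucocorticoid-induced gene, and the largest fall that of Pck1 (-1.80, SE 0.46).

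At 24 h, 17.2% of all genes were higher and 15.5% lower. Of 17 targets of AKT, 6 were higher and 2 lower, among the latter Pde3b, the phosphodiesterase through which insulin restrains lipolysis (-1.60, SE 0.16). Of 19 brakes on the pathway, 5 were higher and 1 lower, and Grb14, an adaptor that inhibits the insulin receptor, rose (1.26, SE 0.19). Of 16 genes known to be driven by FOXO factors, 3 were higher, including the repressor Bcl6 (1.19, SE 0.33), and 4 lower, including Pck1, the enzyme of gluconeogenesis and glyceroneogenesis (-2.49, SE 0.47). Trim63, a ubiquitin ligase of muscle in the same list, was also higher (2.51, SE 0.85), with at most 6 counts per mouse with PTU alone and 35 at 24 h. The summed skeletal muscle markers were between 64.3 and 640.5 CPM with PTU alone and between 267 and 1143 CPM at 24 h, and their part in the result was not tested. The ligand gene Igf1 fell (-1.31, SE 0.32).

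In BATKO mice, 0 of 9 members were called 24 h after TH. The same held for 0% of 14178 genes by edgeR, with 673 genes at an unadjusted p under 0.05, and for 0 genes by DESeq2. Akt1 had 35.0, 32.1, 38.3, 27.3 and 34.2 CPM with PTU alone and 31.6, 41.1, 37.4, 33.0 and 32.7 CPM after TH. Its log2 fold change was 0.07, with a 95% confidence interval from -0.20 to 0.34. Foxo1 had 47.1, 57.7, 52.5, 80.2 and 51.7 CPM and then 53.1, 55.8, 55.0, 81.7 and 74.8 CPM, a log2 fold change of 0.15 with an interval from -0.29 to 0.58. For both genes the groups overlapped. At an unadjusted p under 0.05 stood Pik3ca (0.17) and Akt2 (-0.28). Pik3ca lay between 35.7 and 39.1 CPM with PTU alone and between 39.8 and 44.9 CPM after TH, without overlap, as for 0.762% of all genes (adjusted p = 0.963).

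**Figure D2:**
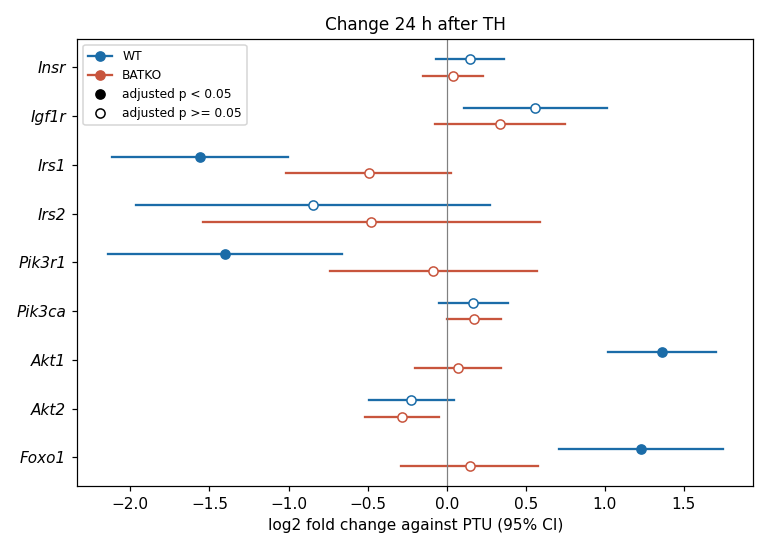
Log2 fold change at 24 h after TH against PTU alone (x axis) of the 9 members (y axis), in blue for WT and red for BATKO mice. Points are edgeR estimates, lines 95% confidence intervals, and filled points have an adjusted p under 0.05. Akt1 stood at 1.36 in WT and 0.07 in BATKO mice.

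The difference between the responses was tested itself, as an interaction, and passed for 2 of 9 members, where 12.3% of all genes passed. As BATKO minus WT, it was -1.29 (SE 0.20, adjusted p = 0.000137) for Akt1, which held without any 1 of 18 mice. It was -1.09 (SE 0.32, adjusted p = 0.0225) for Foxo1, which was lost without WT PTU mouse B2 or B3 or 24 h mouse B27 (adjusted p of up to 0.0857). Irs1 (1.06, SE 0.39, adjusted p = 0.0689) and Pik3r1 (1.31, SE 0.48, adjusted p = 0.0693) did not pass. DESeq2 called Irs1 (adjusted p = 0.0403), and both were called without a filter on low counts (0.0315 and 0.0250). Irs1 had 47.3, 64.4, 27.6, 44.3 and 32.4 CPM in BATKO mice with PTU alone and 41.6, 21.6, 34.0, 37.4 and 18.8 CPM after TH. Pik3r1 had 74.7, 64.3, 47.1, 91.0 and 69.3 CPM and then 44.6, 60.9, 40.8, 61.7 and 119 CPM. For both genes the ranges with and without TH overlapped. Of 90 other pathway genes, 8 had a higher and 9 a lower response in BATKO mice, against 5.12% and 7.15% of all genes, among them Pde3b (1.35, SE 0.25), Sgk3, a kinase related to AKT (1.00, SE 0.21), and Grb14 (-1.58, SE 0.33).

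The second experiment compared mice at 4 °C and 30 °C, for 24 h by the name of its table. In CTRL mice, both substrate genes, Pik3r1 and Igf1r were lower at 4 °C, and Insr, Akt1 and Akt2 were higher. These were 7 of 9 members, where 49.1% of 13267 genes were called, and their groups did not overlap, as for 50.4% of genes. The count was 7 also in a fit without the 6 mice of this experiment that were high in skeletal muscle markers, CTRL mice 20 and 21 at 30 °C among them. Foxo1 and Pik3ca did not pass. Summed markers of several cell types also moved in CTRL mice, without overlap. Those of brown adipocytes were between 6602 and 8276 CPM at 30 °C and between 27411 and 32708 CPM at 4 °C, and those of red blood cells between 177 and 333 and then between 766 and 1711 CPM. White adipocyte markers were between 30.3 and 139 CPM at 30 °C and between 8.12 and 26.1 CPM at 4 °C, immune cell markers between 46.7 and 82.1 and then between 32.8 and 40.8 CPM, and fibroblast markers between 215 and 310.2 and then between 179 and 198 CPM. Their part in these results was not tested.

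**Figure D3:**
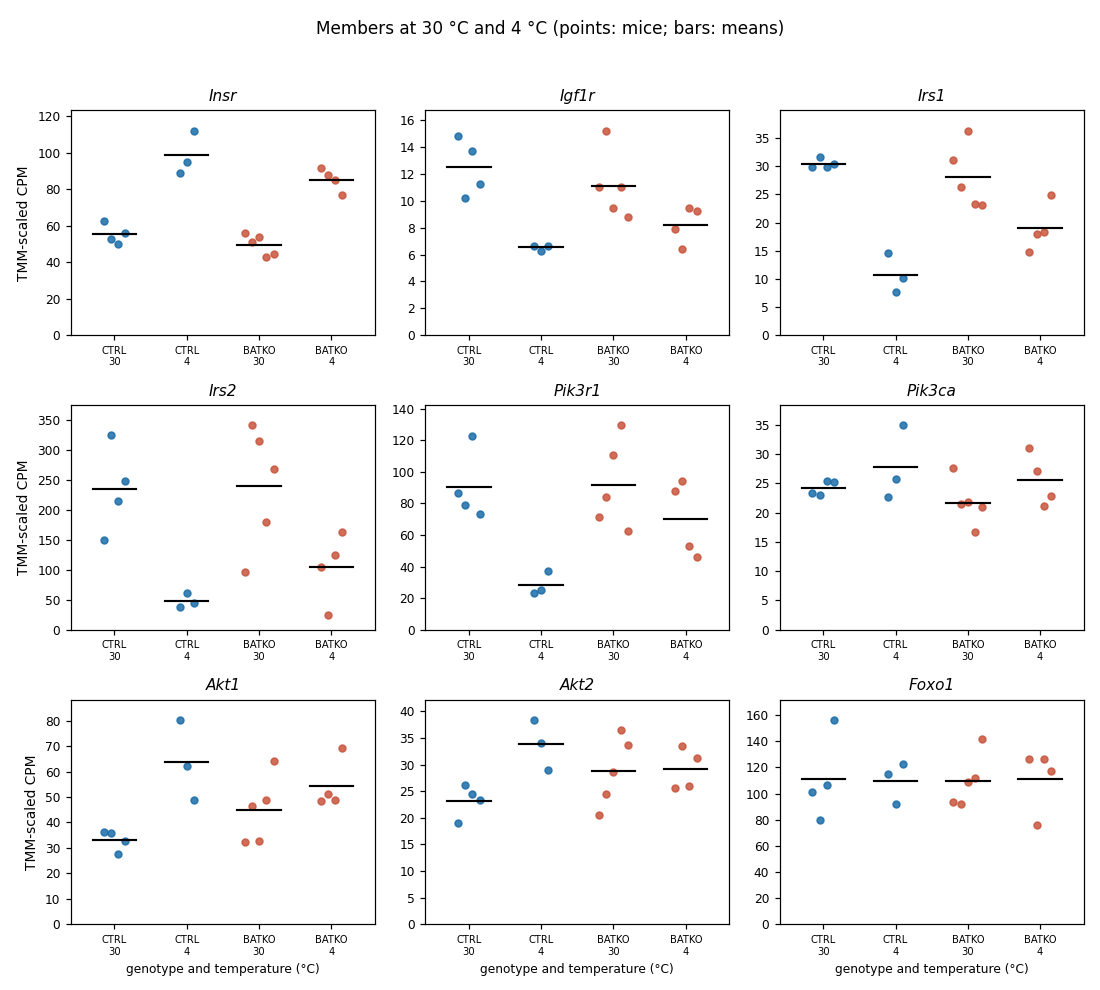
Levels of the 9 members in each mouse at 30 °C and 4 °C (TMM-scaled CPM, axes from 0), by genotype. Points are mice, blue for CTRL and red for BATKO, and bars are group means. Insr lay between 49.9 and 62.7 CPM in CTRL mice at 30 °C and between 89.0 and 112 CPM at 4 °C.

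The largest change was that of Irs2, with 149, 324, 215 and 248 CPM in CTRL mice at 30 °C and 37.7, 61.3 and 43.9 CPM at 4 °C, a log2 fold change of -2.30 (SE 0.52, adjusted p = 0.00165). Irs1 had 29.9, 31.7, 29.8 and 30.3 CPM at 30 °C and 14.6, 7.62 and 10.1 CPM at 4 °C, a log2 fold change of -1.50 (SE 0.22, adjusted p = 4.17e-05). Pik3r1 had 86.6, 79.0, 122 and 73.6 CPM and then 23.1, 24.9 and 37.3 CPM, a log2 fold change of -1.67 (SE 0.31, adjusted p = 0.000288). The 3 genes were lower in every mouse at 4 °C than in any at 30 °C.

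The receptor genes moved in opposite directions. Insr had 62.7, 53.0, 49.9 and 56.1 CPM at 30 °C and 89.0, 94.7 and 112 CPM at 4 °C, a log2 fold change of 0.83 (SE 0.13, adjusted p = 6.41e-05). Igf1r had 14.9, 10.2, 13.7 and 11.3 CPM and then 6.66, 6.27 and 6.66 CPM, a log2 fold change of -0.94 (SE 0.20, adjusted p = 0.00117).

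Both kinase genes were higher in the cold. Akt1 had 36.4, 35.8, 27.4 and 32.7 CPM at 30 °C and 80.2, 62.1 and 48.8 CPM at 4 °C, a log2 fold change of 0.95 (SE 0.23, adjusted p = 0.00246). Akt2 had 19.0, 26.1, 24.4 and 23.4 CPM and then 38.4, 34.0 and 29.0 CPM, a log2 fold change of 0.54 (SE 0.18, adjusted p = 0.0232), lost without CTRL 4 °C mouse 1 or 2 or CTRL 30 °C mouse 19 (adjusted p of up to 0.133). Foxo1 had 101, 79.8, 107 and 156 CPM and then 115, 91.8 and 122 CPM, a log2 fold change of -0.01 with a 95% confidence interval from -0.49 to 0.46. That of Pik3ca was 0.20, with an interval from -0.18 to 0.57.

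In BATKO mice, 3 of 9 members were called at 4 °C, where 40.3% of all genes were. Insr had 56.2, 51.0, 53.8, 42.6 and 44.6 CPM at 30 °C and 91.7, 87.7, 84.8 and 76.9 CPM at 4 °C, with no overlap, as for 31.2% of genes, and a log2 fold change of 0.78 (SE 0.11, adjusted p = 6.15e-05). Irs1 had 31.1, 26.2, 36.3, 23.3 and 23.2 CPM and then 14.8, 18.0, 18.2 and 24.9 CPM, a log2 fold change of -0.56 (SE 0.19, adjusted p = 0.0242). Irs2 had 95.8, 341, 314, 179.8 and 268 CPM and then 104, 23.8, 124 and 163 CPM, a log2 fold change of -1.21 (SE 0.43, adjusted p = 0.0352). Both substrates overlapped between temperatures. In BATKO mice too the summed markers moved, those of brown adipocytes from between 6829.8 and 8389.7 CPM at 30 °C to between 18704 and 27685 CPM at 4 °C, of red blood cells from between 182 and 494 to between 771 and 1111 CPM and of white adipocytes from between 68.9 and 175 to between 21.1 and 37.0 CPM, and their part was not tested. Without the mice above 1000 CPM of skeletal muscle markers (BATKO mice 13 and 17 at 30 °C and 8 and 11 at 4 °C, CTRL mice 20 and 21 at 30 °C), only Insr of the members was called in BATKO mice, while 2216 genes in place of 5340 were called. Irs1 then had a log2 fold change of -0.52 (adjusted p = 0.267) and Irs2 one of -1.05 (adjusted p = 0.0506). Irs1 was also lost without BATKO 4 °C mouse 7 or 8 or 11 or BATKO 30 °C mouse 15 (adjusted p of up to 0.0883), and Irs2 without BATKO 4 °C mouse 7 or 8 or BATKO 30 °C mouse 14 or 15 or 17 (up to 0.0795). In a fit of only these groups Irs2 was lost as well (adjusted p = 0.0722).

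**Figure D4:**
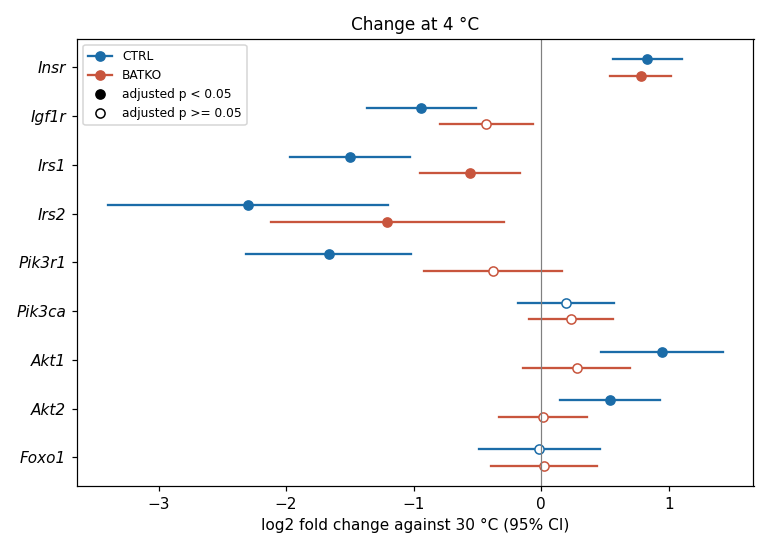
Log2 fold change at 4 °C against 30 °C (x axis) of the 9 members (y axis), in blue for CTRL and red for BATKO mice. Points are edgeR estimates, lines 95% confidence intervals, and filled points have an adjusted p under 0.05. Insr stood at 0.83 in CTRL and 0.78 in BATKO mice, and Pik3r1 at -1.67 and -0.38.

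The difference between the cold responses of the genotypes passed for 0 of 9 members by edgeR, where 1.12% of all genes passed and Irs1, Pik3r1, Akt1 and Akt2 had an unadjusted p under 0.05, as did 2471 of 13267 genes. It was 1.29 (SE 0.39, adjusted p = 0.0953) for Pik3r1 and 0.94 (SE 0.28, adjusted p = 0.0954) for Irs1, as BATKO minus CTRL. DESeq2 called both, with an adjusted p of 0.0288 and 0.0420. For Insr the difference was -0.05, with a 95% confidence interval from -0.42 to 0.31.

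At 4 °C, Pik3r1 had 87.9, 94.0, 53.3 and 46.1 CPM in BATKO mice, all above the CTRL mice, while 13.2% of all genes had groups that did not overlap. It was the 1 member called between genotypes, with a log2 fold change of 1.30 (SE 0.30, adjusted p = 0.0354), where 2.16% of all genes were called. The call was lost in a fit of only these groups (log2 fold change 1.30, adjusted p = 0.0705) and without the mice high in muscle markers (1.21, adjusted p = 0.0764). It was also lost without CTRL 4 °C mouse 1 or 2 or BATKO 4 °C mouse 7 or 8 (adjusted p of up to 0.156). Fibroblast markers were between 179 and 198 CPM in CTRL and between 205 and 319 CPM in BATKO mice at 4 °C, and their part was not tested. Irs1, at 0.82 (adjusted p = 0.0616), was called by DESeq2 (0.0211). At 30 °C, 0 of 9 members were called by edgeR or DESeq2, where 0.00754% of genes were by edgeR, and Akt1 was the 1 member with an unadjusted p under 0.05, as for 1209 of 13267 genes.

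Of 93 other pathway genes, 26 were higher and 26 lower at 4 °C in CTRL mice, with a median log2 fold change of -0.11 against -0.01 over all genes, of which 26.5% were higher and 22.6% lower. In BATKO mice 18 were higher and 21 lower, against 21.4% and 18.9% of all genes. Of 13 genes in the list of PI3K subunits, 0 rose and 5 fell in CTRL mice, the largest fall being that of Pik3ip1, an inhibitor of PI3K (-2.36, SE 0.48). Of 17 targets of AKT, 9 were higher and 3 lower. Mtor, the kinase at the centre of growth control, was higher in CTRL (1.96, SE 0.14) and BATKO mice (1.32, SE 0.12). Sgk2, a kinase related to AKT, had at most 2 counts per CTRL mouse at 30 °C and 118, 301 and 277 counts at 4 °C. The ligand gene Igf1 (-2.38, SE 0.22) and the substrate gene Irs3 (-2.35, SE 0.27) were lower in CTRL mice. In BATKO mice, Sgk2 (4.41, SE 0.56) and Acly (1.87, SE 0.44) were higher. Lower were Grb14 (-2.23, SE 0.26), Pik3ip1 (-1.96, SE 0.40) and Sesn3, a stress gene driven by FOXO factors (-1.55, SE 0.20). Genes were named by the size of their change within a genotype, so a gene named in 1 genotype may have changed in both. The difference in cold response between genotypes passed for 2 of the 93 genes, in a direction in which 0.317% of all genes passed. These were Igf1 (1.25, SE 0.28, adjusted p = 0.0393) and Pck1 (1.15, SE 0.26, adjusted p = 0.0433). At least 1 of these calls was lost without the mice high in skeletal muscle markers, and likewise without CTRL 4 °C mouse 1, where 1 gene of all passed in that direction.

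The third experiment compared HFD with chow, for 3.5 days by the name of its table. Irs2 was the 1 member called in CTRL mice, where 3.94% of 12932 genes were. It had 256, 505, 345 and 494 CPM on chow and 125, 110.4, 187 and 87.1 CPM on HFD, with no overlap, as for 10.7% of genes. Its log2 fold change was -1.65 (SE 0.43, adjusted p = 0.0445). The call was lost without HFD mouse 7 or 9 or 10 or 11 or chow mouse 2 or 4 (adjusted p of up to 0.125), with a log2 fold change between -1.90 and -1.52. Summed markers moved without overlap between chow and HFD, those of immune cells from between 43.7 and 48.0 to between 60.3 and 181 CPM, of fibroblasts from between 211 and 260.4 to between 285 and 357 CPM and of brown adipocytes from between 8767 and 10509.7 to between 10526 and 12885 CPM, and their part was not tested. Irs1 had 46.0, 49.4, 20.6 and 18.5 CPM on chow and 19.8, 24.5, 24.2 and 28.8 CPM on HFD. The lower 2 chow mice, 3 and 4, had 2127 and 1473 CPM of skeletal muscle markers. The log2 fold change of Irs1 was -0.47 (adjusted p = 0.360), and -0.98 without the mice high in these markers (adjusted p = 0.00672). That fit, chosen after the data were seen, kept only chow mice 1 and 2 in the CTRL chow group. These had the higher Irs1 levels, so a larger fall follows from leaving out the others.

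**Figure D5:**
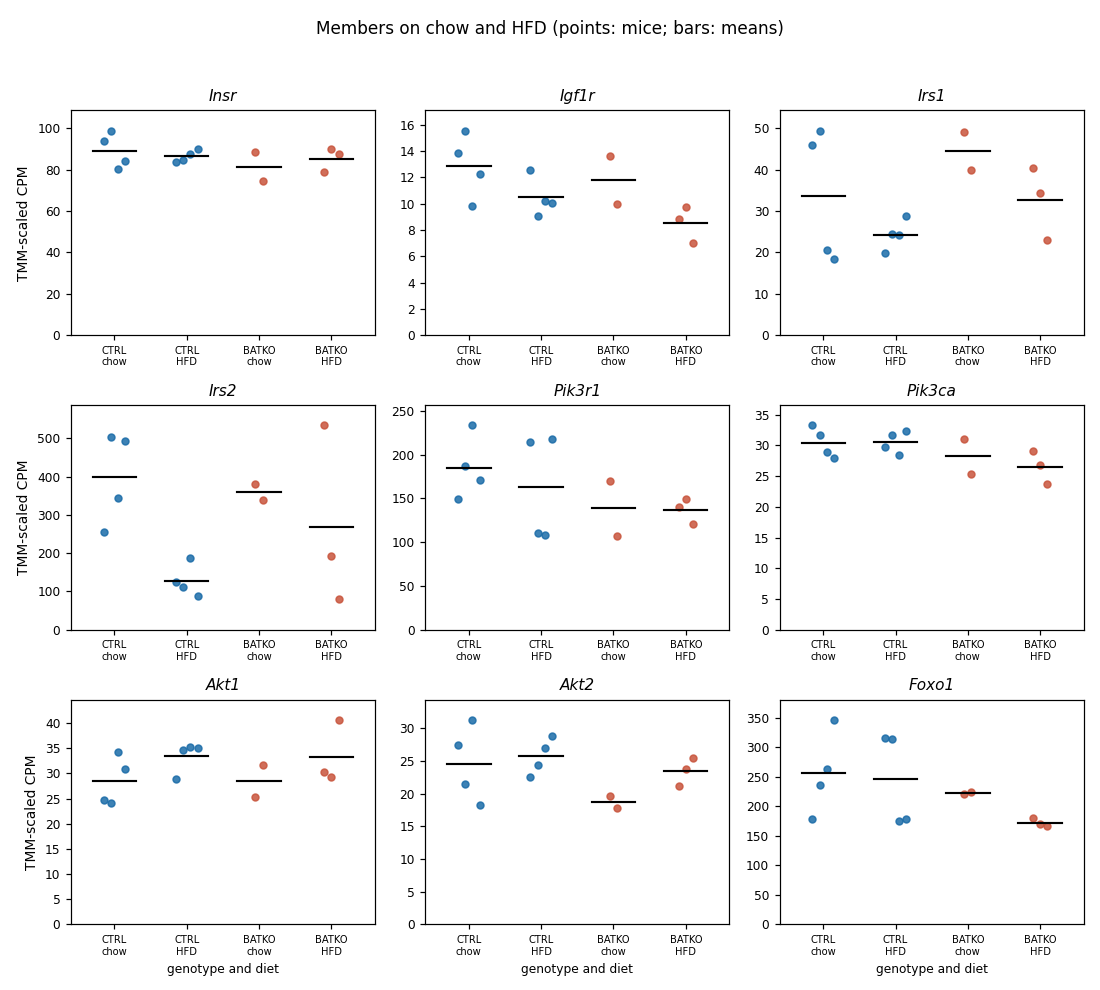
Levels of the 9 members in each mouse on chow and HFD (TMM-scaled CPM, axes from 0), by genotype. Points are mice, blue for CTRL and red for BATKO, and bars are group means. Irs2 lay between 256 and 505 CPM in CTRL mice on chow and between 87.1 and 187 CPM on HFD.

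The log2 fold change of Insr in CTRL mice was -0.04 with a 95% confidence interval from -0.25 to 0.17, and that of Foxo1 was -0.06 with an interval from -0.51 to 0.40. Foxo1 had 178, 236, 263 and 346 CPM on chow and 316, 314, 175 and 178 CPM on HFD, over overlapping ranges. Of 92 other pathway genes, 1 was higher, the adaptor gene Dok4 (0.86, SE 0.19), and 5 were lower, with the largest falls in Acly (-1.67, SE 0.22), the AKT-related kinase gene Sgk1 (-0.98, SE 0.13) and Sesn3 (-0.68, SE 0.15), against 1.89% and 2.04% of all genes.

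In BATKO mice, 0 of 9 members were called between HFD and chow by edgeR or DESeq2, where 0.0696% of genes were by edgeR, and 0 members had an unadjusted p under 0.05, against 1996 of 12932 genes. Irs2 had 381 and 339 CPM in the 2 chow mice and 534, 192 and 81.1 CPM in the 3 HFD mice, a log2 fold change of -0.42 with a 95% confidence interval from -1.56 to 0.71. The HFD response of Irs2 was not shown to differ between genotypes (difference 1.23, SE 0.69, adjusted p = 0.895). Between genotypes, 0 of 9 members were called on HFD, on chow or in that difference by edgeR or DESeq2, with 0% of all genes called by edgeR in each. The genes at an unadjusted p under 0.05 numbered 691, 1024 and 740, with the members Irs2 and Foxo1 on HFD. DESeq2 called 9, 33 and 0 genes.

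Over the 15 group means, centred within each experiment, the genes with the pattern most like a member among 8489 genes were named by Pearson's r, as a description. They were Nacc2 (0.98), Slc25a51 (0.98) and Aste1 (0.97) for Insr, Rnf144b (0.92), Dnajc7 (0.90) and Slc45a4 (0.90) for Igf1r, Hcar1 (0.93), Supt20 (0.90) and Stk39 (0.89) for Irs1 and Ppp1r10 (0.97), Pigm (0.97) and G2e3 (0.97) for Irs2. For the PI3K subunits they were Lonrf1 (0.94), Trps1 (0.91) and Lgr4 (0.88) for Pik3r1 and Hspa14 (0.91), Mrpl48-ps (0.91) and Gpi1 (0.91) for Pik3ca. They were Ltbp4 (0.96), Zmiz2 (0.96) and Nup62 (0.95) for Akt1, Mta2 (0.99), Erp29 (0.99) and Dcaf8 (0.98) for Akt2 and Foxn3 (0.97), Zhx3 (0.97) and Pfkfb1 (0.96) for Foxo1. Centring within the TH experiment kept the gap between its WT and BATKO libraries. With these mice centred apart, many of the 3 genes most like a member were replaced. Those of Igf1r became Gk5, Gm14586 and Nit2. Only Aste1 stayed for Insr, Hcar1 for Irs1, Ppp1r10 for Irs2, Hspa14 for Pik3ca and Mta2 for Akt2. Lonrf1 and Trps1 stayed for Pik3r1, Zmiz2 and Nup62 for Akt1, and Foxn3 and Pfkfb1 for Foxo1. Dcaf8 fell to an r of 0.82 with Akt2. Group means share libraries and scaling and are not independent.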

How the data were processed

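BAT RNA was extracted with Trizol and sequenced, 1 library per mouse. For its atlas, the paper aligned reads to GRCm38 with Bowtie, removed reads of low alignment quality, and ran htseqcount per gene. Of BAT RNA-seq, the atlas lists only PTU-fed mice with and without TH. The deposited values are raw counts, not normalized, and it was not established that those of every mouse came from these steps. The submitters' processing notes name Bowtie2 (version 2.3.2.2) and mm10. The annotation and strand setting are not given in the sources used here. Of 55341 symbols, 55327 were found in GENCODE M21, which gave exon lengths. Whether mice of a group came from separate litters is not stated, and p-values measure the spread between these mice.

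Counts were tested with edgeR (version 4.0.16, quasi-likelihood test, TMM, R version 4.3.3) on genes with a mean normalized count above 10, at a Benjamini-Hochberg adjusted p under 0.05 over all genes. The WT time course was fitted over the 20 WT mice, the BATKO response and its interaction over all 30 mice, and the temperature and diet comparisons over all mice of their experiment. Standard errors came from the F statistic. A first run computed the size factors of the WT fit over all 30 mice. This was changed to the mice of the fit after these values had been seen, because the WT and BATKO libraries differ, and the first scaling is kept as an alternative. Other alternatives were DESeq2 (version 1.42.0), its size factors, no mitochondrial genes, no filter or a mean count above 50, other sets of mice in the fit, each mouse left out, and, chosen after the data were seen, mice with summed skeletal muscle markers above 1000 CPM left out. The scripts were tested on simulated data.

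The members and gene lists were chosen with earlier results of these data known. The text names all 9 members, up to 3 list genes per direction and comparison with the largest change past the threshold, and for each member the 3 genes most like it over group means of log2(CPM + 0.5) among genes with a mean count above 50. The genes mt-Atp6, Gm9747, Gm20402 and 9530052E02Rik were chosen outside this rule, after their values or positions were seen. No library was a copy of another: chi-square divided by its degrees of freedom was at least 6.81 for every pair within an experiment.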

Additional observations from a re-analysis of the deposited data

Results flagged for a closer look

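The responses to TH at 24 h differed between genotypes by the interaction test for Akt1 (-1.29) and Foxo1 (-1.09), as BATKO minus WT on the log2 scale. Genotype cannot be told apart from the difference between the libraries of this experiment. The call of Foxo1 was lost when single WT mice were left out. Of 108 groups of 4 or 5 mice examined over the 9 members, 7 held a mouse that stood apart by Dixon's criterion, where chance gives about 1 in 20. Insr in PTU-fed WT mouse B3 was 97.0 CPM against 80.5 to 82.1 CPM in the others. Pik3r1 in BATKO mouse 15 after TH was 119 CPM against 40.8 to 61.7 CPM in the others. In WT mouse B12 at 6 h, Pik3ca was 36.4 CPM against 30.6 to 31.1 CPM in the others and Akt2 was 23.1 CPM against 29.5 to 30.6 CPM in the others, and this mouse had 1654 CPM of skeletal muscle markers, whose part was not tested. Akt1 was 26.9 CPM against 24.4 to 24.7 CPM in the others in WT mouse B11 at 3 h, 69.3 CPM against 48.4 to 51.1 CPM in the others in BATKO mouse 12 at 4 °C, and 29.0 CPM against 34.8 to 35.3 CPM in the others in CTRL mouse 7 on HFD.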

How the results depend on the processing

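No called log2 fold change of a member changed sign under any alternative. The number of members called differed by 1.5 times or more in these cases, and the cause was not tested. Without a filter on low counts it was 4 in place of 2 for the difference in TH response and 1 in place of 0 between genotypes on HFD (Irs2). With DESeq2 it was 3 in place of 2 for the difference in TH response, 2 in place of 1 between genotypes at 4 °C and 2 in place of 0 for the difference in cold response. In a fit of only the groups compared it was 2 in place of 3 for BATKO mice at 4 °C and 0 in place of 1 between genotypes at 4 °C. Without the mice high in skeletal muscle markers it was 1 in place of 3 for BATKO mice at 4 °C, 0 in place of 1 between genotypes at 4 °C, and 2 in place of 1 for CTRL mice on HFD. With size factors over all 30 mice, 2 in place of 3 members were called between 24 h and 3 h. Leaving out 1 mouse at a time gave 4 to 5 members at 3 h, 4 to 5 at 6 h, 3 to 5 at 12 h, 4 to 5 at 24 h and 0 to 3 between 24 h and 3 h, 0 in BATKO mice given TH and 1 to 3 for the difference. In the cold it gave 6 to 7 in CTRL and 1 to 3 in BATKO mice, 0 to 1 between genotypes at 4 °C, 0 at 30 °C and 0 to 1 for the difference. On HFD it gave 0 to 1 in CTRL mice and 0 in BATKO mice, and 0 between genotypes on HFD, 0 on chow and 0 for the difference.

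Counts over all genes moved more. With DESeq2 they were 650 in place of 286 between genotypes at 4 °C, 8 in place of 1 at 30 °C, 656 in place of 149 for the difference in cold response, 872 in place of 509 in CTRL mice on HFD and 226 in place of 9 in BATKO mice on HFD. Without the mice high in muscle markers they were 97 between genotypes at 4 °C, 6 for the difference in cold response and 4 in BATKO mice on HFD. In a fit of only the groups compared they were 61 between genotypes at 4 °C, 321 in CTRL and 66 in BATKO mice on HFD and 114 in place of 0 between genotypes on chow. Without a filter they were 1280 in CTRL and 336 in BATKO mice on HFD, and 59, 290 and 216 in place of 0 between genotypes on HFD, on chow and for their difference. Without PTU-fed WT mouse B3, 684 in place of 1195 genes were called at 3 h. Leaving out 1 mouse at a time gave 53 to 565 genes between genotypes at 4 °C, 5 to 907 for the difference in cold response, 166 to 716 in CTRL mice on HFD, 0 to 9 in BATKO mice on HFD, 0 to 10 between genotypes on HFD (10 without CTRL HFD mouse 10) and 0 to 1 in BATKO mice given TH. No paired analysis was possible because the groups compared within a genotype share no mouse number, and equal numbers across genotypes belong to different mice. Group sizes of 2 to 5 mice limit what could be detected.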
